A study of Mus musculus with 2 samples.

Results

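Nuclear hormone receptors are transcription factors that carry a DNA-binding domain with zinc fingers and, in most of them, a pocket for a small lipid-soluble ligand. The receptors described here are 36 of 55536 annotated mouse genes, taken by name as receptors for thyroid hormone, retinoids, steroids, oxysterols, bile acids, fatty acids, vitamin D and xenobiotics, with related orphan receptors. Left out were receptors tied to cortical identity, such as Nr5a1, the factor that drives steroid enzyme genes, and further ones such as the Nr4a and Nr1d genes and both COUP-TF genes Nr2f1 and Nr2f2. The choice is a fixed list of names whose rule uses no measured level, but it was made with earlier results of these data known.

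Total RNA came from the whole adrenal gland of 2 male B6CASTF1/J mice, the F1 hybrid of the C57BL/6J and CAST/EiJ strains, aged 8 to 10 months. There is 1 group and no treatment. Replicate 2 is animal 4 and replicate 1 is animal 2 of the submitters' numbering, so each library stands for a separate animal. Every level below is in TPM (a share of all transcripts, corrected for transcript length) and every mean carries its SD over n = 2 animals.

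Before hormone binds, many of these receptors sit on DNA with corepressors, and ligand exchanges those for coactivators. Receptors for thyroid hormone, retinoic acid, vitamin D, oxysterols, bile acids and fatty acids bind as heterodimers with a retinoid X receptor, whereas steroid receptors wait in complexes with heat-shock chaperones and bind as homodimers. The adrenal cortex makes the steroids that several of these receptors read, and it stores the cholesterol from which oxysterols derive.

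The libraries held 33987434 counts in replicate 2 and 29994901 in replicate 1, and a gene without counts may still have up to 3 counts' worth of RNA, or 0.0883 CPM in replicate 2 and 0.10 CPM in replicate 1 (CPM, counts divided by the library's total and rescaled). All 6 cortical markers were detected, with summed levels of 18002 TPM in replicate 2 and 21350 TPM in replicate 1, and so were all 6 chromaffin markers, at 2218 TPM in replicate 2 and 3117 TPM in replicate 1. None of 5 kidney markers reached 1 TPM in both animals. The animals stood apart in fat: the 6 adipocyte markers summed to 1285 TPM in replicate 2 and 177 TPM in replicate 1, none of them at 0 in either. The 5 brown adipocyte markers summed to 234 TPM in replicate 2 and 16.9 TPM in replicate 1, and none of these was at 0 either. In whole tissue, fewer cells of a type and less RNA per cell cannot be told apart.

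Of the 36 receptors, 25 reached 1 TPM in both glands, or 69.4%, against 12385 of 22015 nuclear protein-coding genes, or 56.3%. Another, Rxrg, did so in replicate 2 alone, and 10 stayed below 1 TPM in both. Most detected receptors were of middling abundance: their median was 11.7 TPM, set against 13.2 TPM over detected coding genes. Means of 10 TPM or more were seen for 15 receptors, the highest mean was that of Nr1h2 at 45.9 ± 5.64 TPM, and 1633 coding genes lay above it. Between neighbours in the order of mean levels, the ranges of the animals were apart in 4 of 24 pairs of detected receptors, below Nr1h2, Rora, Esrrg and Rarb, so most adjacent ranks do not differ beyond their spread.

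**Figure D1:**
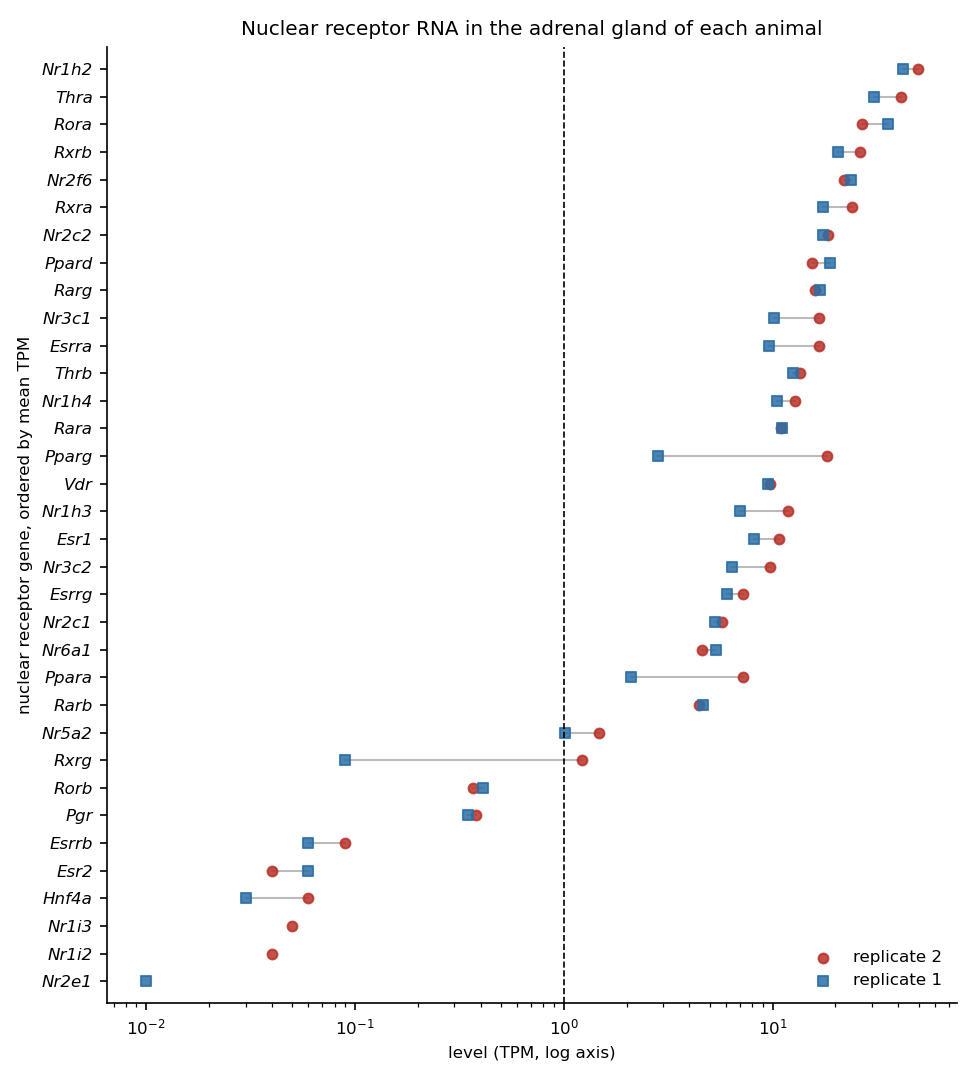
Level of each receptor in TPM (log axis) in replicate 2 (red circles) and replicate 1 (blue squares), ordered by mean, with the dashed line at 1 TPM. A value of 0 is not drawn, so Hnf4g and Nr2e3 are absent and Nr1i3, Nr1i2 and Nr2e1 show 1 point. Among receptors with a mean of at least 10 counts, Pparg, Ppara and Rxrg have the widest gaps between animals.

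Thyroid hormone receptors were both present, and Thra led. Thra, on chromosome 11 from 98740638 to 98769006 of mm10 (plus strand), had 41.28 TPM in replicate 2 and 30.54 TPM in replicate 1. Thrb, on chromosome 14 from 17660261 to 18038090 (plus strand), had 13.48 TPM in replicate 2 and 12.52 TPM in replicate 1. The lower Thra value exceeded the higher Thrb value, and the Thra level was 3.06 times that of Thrb in replicate 2 and 2.44 times in replicate 1.

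Thra makes a hormone-binding receptor, TRα1, and a splice form with another end, known in mouse and human for failing to bind the hormone. Their coding sequences are identical for the first 1111 bases, or 370 codons, and then part. The join is shown here because the whole difference between receptor and non-binding form lies after it. Capitals mark the first 60 bases that each transcript has alone, from the GENCODE M21 transcripts on mm10, chr11:98768158-98768217 for Thra-201 and chr11:98764407-98764466 for Thra-202, both coding exon on the plus strand.
Thra-201: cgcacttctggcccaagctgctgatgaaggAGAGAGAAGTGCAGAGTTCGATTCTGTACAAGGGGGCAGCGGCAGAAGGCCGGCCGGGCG
Thra-202: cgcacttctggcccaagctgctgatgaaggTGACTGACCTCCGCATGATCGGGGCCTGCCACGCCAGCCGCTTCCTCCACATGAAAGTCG

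Thra-201, whose product has 492 codons and is the non-binding form, took 39.3% of the gene's TPM in replicate 2 and 46.8% in replicate 1. Thra-202, with 410 codons and the hormone-binding end, took 27.6% in replicate 2 and 22.2% in replicate 1. The longer form was ahead in both animals, and the kallisto-format tables gave the same order, at 35.8% against 24.4% in replicate 2 and 39.4% against 18.1% in replicate 1. Transcripts with an incomplete or no coding sequence made up the rest. The final exons of the longer form face the Nr1d1 gene on the opposite strand, with 263 shared exonic bases. Nr1d1 had 106.24 TPM in replicate 2 and 87.79 TPM in replicate 1, and whether reads were assigned by strand is not given in the sources used here.

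Thrb-202 encodes 475 codons, the mouse β2 form known from pituitary and hypothalamus, and Thrb-201 and Thrb-203 encode the 461 codons of β1. The 2 products share their last 1107 coding bases and have separate starts, of which the first 60 bases are given in capitals. They come from GENCODE M21 on mm10, plus strand, chr14:17981877-17981936 for Thrb-202, in 1 exon, whereas those of Thrb-201 run across an intron.
Thrb-202: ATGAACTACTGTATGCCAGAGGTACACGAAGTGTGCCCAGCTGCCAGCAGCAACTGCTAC
Thrb-201: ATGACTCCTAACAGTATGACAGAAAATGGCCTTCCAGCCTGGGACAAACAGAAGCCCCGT

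The β1 product took 57.1% of Thrb TPM in replicate 2 and 49.3% in replicate 1, against 35.3% in replicate 2 and 31% in replicate 1 for the β2 product. In the kallisto-format tables these shares were lower, at 35.7% in replicate 2 and 38.3% in replicate 1 for β1, and 21.6% in replicate 2 and 19.0% in replicate 1 for β2. β1 stood ahead of β2 in each animal by both tables, and the sizes of the shares depend on the table. The transcripts also differ in annotated length, 6200 bases for Thrb-202 against 4532 for Thrb-201 and 1758 for Thrb-203, and the part of that length in the shares was not tested.

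Of 8 genes that bring thyroid hormone to its receptors or convert it, 4 were detected. Dio1, an activating deiodinase, was listed at 0 in replicate 2 and at 0.12 TPM in replicate 1. Dio2, the other activating deiodinase and a gene of brown fat, had 1.4 TPM in replicate 2 and 0.06 TPM in replicate 1, and was the 1 supply gene past the 2-fold rule defined further on. Among 7 target genes, Me1, a source of NADPH, had 703.64 TPM in replicate 2 and 800.63 TPM in replicate 1. The other well-known target Thrsp, a gene of fat synthesis, had 126.78 TPM in replicate 2 and 6.24 TPM in replicate 1, in the same direction as the fat markers.

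Retinoic acid receptors were all 3 detected, in the same order in each animal. Rarg had 15.95 TPM in replicate 2 and 16.95 TPM in replicate 1. Rara had 11.03 TPM in replicate 2 and 11.04 TPM in replicate 1, and Rarb 4.44 TPM in replicate 2 and 4.66 TPM in replicate 1. The levels of the 3 receptors did not overlap, and Rarg stood at 3.59 times Rarb in replicate 2 and 3.64 times in replicate 1. For Rarg the product of 447 codons took 45.4% of TPM in replicate 2 and 47.3% in replicate 1, against 22.2% in replicate 2 and 27.5% in replicate 1 for that of 458 codons, which has another start. Exons of Rarb share 34.1% of their bases with the oppositely oriented Top2b, which had 34.46 TPM in replicate 2 and 32.40 TPM in replicate 1.

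Rarb is itself a textbook target of retinoic acid receptors through a response element beside its start. A direct repeat of the elements GGTTCA and AGTTCA with 5 bases between them was searched for on both strands in the RefSeq promoter windows of GRCm38.p6, which run from 250 bases before to 50 bases after each start. These letters are those of the known Rarb element, so finding them at Rarb was set in advance and is no test. The repeat was in 2 of 32851 windows, or 0.00609%, and 1 of those belonged to Rarb. It lies 53 to 37 bases before the RefSeq start, on the minus strand at chr14:16575513-16575529, and GENCODE starts Rarb-201 at a point 67 bases before the RefSeq start. Capitals mark the repeat in the 30 bases chr14:16575506-16575535.
Rarb: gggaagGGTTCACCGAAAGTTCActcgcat

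The commoner single element AGGTCA stood in 10 of 53 windows of 33 receptors with a window, or 18.9%, against 16.3% of all windows. Direct repeats of AGGTCA spaced by 1 base or by 4 bases were in 0 of the 53, against 0.0396% and 0.0152% of all windows. The extended element TCAAGGTCA was also in 0 of the 53, against 0.423% of all windows. With each of these motifs a match is a description of letters, not of binding. The genes that make and destroy retinoic acid were led by Aldh1a1, which oxidises retinal to retinoic acid, at 453.63 TPM in replicate 2 and 301.85 TPM in replicate 1. Dhrs3, which reduces retinal back to retinol and is also a target gene, had 35.25 TPM in replicate 2 and 19.19 TPM in replicate 1. Aldh1a2 had 20.02 TPM in replicate 2 and 20.78 TPM in replicate 1. Of 15 supply and breakdown genes 10 were detected. Cyp26b1, which degrades retinoic acid, had 2.46 TPM in replicate 2 and 4.69 TPM in replicate 1, whereas its relative Cyp26a1 was listed at 0 in replicate 2 and 0.02 TPM in replicate 1.

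Retinoid X receptors, the shared partners, were present as Rxrb and Rxra at like levels. Rxrb had 26.34 TPM in replicate 2 and 20.57 TPM in replicate 1, and Rxra 23.94 TPM in replicate 2 and 17.48 TPM in replicate 1. Their ranges overlap, and Rxrb stood at 1.10 times Rxra in replicate 2 and 1.18 times in replicate 1. By the kallisto-format tables it stood at 0.985 times Rxra in replicate 2 and 1.06 times in replicate 1, so which of them led is not settled. Counts not corrected for length put Rxra ahead, with Rxrb at 0.404 times its counts in replicate 2 and 0.452 times in replicate 1. Rxrg, the form known from muscle and brain, had 1.23 TPM in replicate 2 and 0.09 TPM in replicate 1, which rest on 57 counts in replicate 2 and 4 counts in replicate 1. For Rxra the product of 467 codons took 90.0% of TPM in replicate 2 and 88.5% in replicate 1, while for Rxrb 40.7% in replicate 2 and 38.9% in replicate 1 fell on transcripts with no coding sequence.

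Oxysterol receptors were both expressed, Nr1h2 (LXRβ) well above Nr1h3 (LXRα). Nr1h2 had 49.90 TPM in replicate 2 and 41.93 TPM in replicate 1. Nr1h3 had 11.92 TPM in replicate 2 and 7.02 TPM in replicate 1. The 446-codon product of Nr1h2 took 52.2% of its TPM in replicate 2 and 50.3% in replicate 1. The level of Nr1h2 was 4.19 times that of Nr1h3 in replicate 2 and 5.97 times in replicate 1. Of 10 LXR targets 8 were detected, among them Apoe at 413.89 TPM in replicate 2 and 299.31 TPM in replicate 1, and Abca1, the cholesterol exporter, at 75.91 TPM in replicate 2 and 36.61 TPM in replicate 1. Abcg5 and Abcg8, which export sterols from liver and gut, were at or below 0.05 TPM in each animal.

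Nr1h4, the bile acid receptor FXR, on chromosome 10 from 89454234 to 89533585 (minus strand), had 12.82 TPM in replicate 2 and 10.51 TPM in replicate 1. In mouse and human its isoforms differ in their start and in a short insertion next to the DNA-binding domain. Both differences are printed, since 1 of the forms made up most of the RNA, and its transcripts were added to those described after their values were seen. Capitals mark the 12 inserted bases of Nr1h4-203, at chr10:89483372-89483383 on the minus strand, and the line beneath shows the same place in Nr1h4-201, which lacks them.
Nr1h4-203: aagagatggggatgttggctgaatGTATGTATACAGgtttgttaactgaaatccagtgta
Nr1h4-201: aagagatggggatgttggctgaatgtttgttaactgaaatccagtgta
The coding starts follow, with the bases of each transcript alone in capitals, at chr10:89516438-89516503 for Nr1h4-203 and chr10:89506509-89506616 for Nr1h4-201.
Nr1h4-203: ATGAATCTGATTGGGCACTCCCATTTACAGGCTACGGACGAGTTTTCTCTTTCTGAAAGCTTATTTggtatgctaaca
Nr1h4-201: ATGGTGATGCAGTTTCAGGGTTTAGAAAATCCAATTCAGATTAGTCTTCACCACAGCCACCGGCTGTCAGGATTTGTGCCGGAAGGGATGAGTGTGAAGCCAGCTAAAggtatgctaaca

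Nr1h4-203, with 474 codons, took 78.6% of the gene's TPM in replicate 2 and 83.4% in replicate 1. Nr1h4-201, with 484 codons, took 21.4% in replicate 2 and 16.6% in replicate 1. A further annotated form of 488 codons was listed at 0 in both animals. By the kallisto-format tables Nr1h4-203 took 74.2% in replicate 2 and 85.8% in replicate 1, so the insertion-bearing form led by both. Of the 9 listed targets of FXR and of the xenobiotic receptors, the multidrug transporter Abcb1a was the 1 detected, at 36.79 TPM in replicate 2 and 34.23 TPM in replicate 1. That list leaves out Nr0b2, also an FXR target, which was kept with the other nuclear receptors. Nr0b2 was detected, at 14.71 TPM in replicate 2 and 24.24 TPM in replicate 1. The bile acid transporter gene Slc51b was listed at 0 in both, and its partner Slc51a had 0.08 TPM in replicate 2 and 0.09 TPM in replicate 1.

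The fatty acid receptors include the most unequal of the detected receptors between the animals, Pparg and Ppara. Ppard, the form found in most tissues, had 15.52 TPM in replicate 2 and 18.78 TPM in replicate 1, with 65.4% in replicate 2 and 65.8% in replicate 1 on its 440-codon product. Pparg, the receptor that drives adipocyte formation, had 18.31 TPM in replicate 2 and 2.84 TPM in replicate 1. Ppara, which drives fatty acid oxidation in liver, had 7.21 TPM in replicate 2 and 2.11 TPM in replicate 1. The gap for Ppard was small and toward replicate 1, and the order of the family differed between animals. Ppard stood at 0.848 times Pparg in replicate 2 and 6.61 times in replicate 1.

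Pparg has a long product, PPARγ2, known from adipocytes, and a shorter PPARγ1 found more widely. The long one adds 30 codons at its start, printed because no other base of the coding sequence separates the products. Capitals mark those 90 bases, from Pparg-201 in GENCODE M21 on mm10 (chromosome 6, plus strand), which run across an intron.
Pparg-201: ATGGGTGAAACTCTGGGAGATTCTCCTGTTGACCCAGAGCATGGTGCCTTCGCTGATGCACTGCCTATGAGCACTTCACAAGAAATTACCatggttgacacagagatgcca

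By the RSEM-format tables the product of 505 codons took 40.5% of Pparg TPM in replicate 2 and 44.4% in replicate 1, and that of 475 codons 57.1% in replicate 2 and 41.2% in replicate 1. By the kallisto-format tables the 505-codon product took 60.4% in replicate 2 and 13.9% in replicate 1, and the 475-codon product 8.6% in replicate 2 and 30.9% in replicate 1. The tables differ on which product led in each animal, so the make-up of Pparg RNA was not settled by these tables. The RNA of replicate 1 rests on 123 counts.

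The glucocorticoid receptor Nr3c1 and the mineralocorticoid receptor Nr3c2, which read the steroids that the cortex itself makes, were both present. Nr3c1 had 16.62 TPM in replicate 2 and 10.15 TPM in replicate 1, and Nr3c2 had 9.77 TPM in replicate 2 and 6.42 TPM in replicate 1. Within each animal Nr3c1 was ahead, at 1.70 times Nr3c2 in replicate 2 and 1.58 times in replicate 1, and the ranges over animals did not overlap. By the kallisto-format tables Nr3c1 was also ahead within each animal, at 1.43 times in replicate 2 and 1.74 times in replicate 1. There the ranges did overlap, since Nr3c1 had 9.41 TPM in replicate 1 and Nr3c2 had 10.2 TPM in replicate 2. The Nr3c1 product of 792 codons took 66.9% of TPM in replicate 2 and 61.8% in replicate 1, and a product of 793 codons, longer by 3 bases inside the coding sequence, 10.8% in replicate 2 and 13.9% in replicate 1. Hsd11b1, which regenerates active glucocorticoid, had 30.06 TPM in replicate 2 and 23.11 TPM in replicate 1. Among 8 mineralocorticoid targets, several of them also glucocorticoid targets, 6 were detected. Fkbp5 had 40.87 TPM in replicate 2 and 40.09 TPM in replicate 1, whereas Sgk1 had 53.60 TPM in replicate 2 and 92.65 TPM in replicate 1. Scnn1b and Scnn1g, on the same list, were at or below 0.04 TPM in each animal.

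Of the sex steroid receptors here, Esr1 (estrogen receptor α) was the 1 detected. It had 10.72 TPM in replicate 2 and 8.12 TPM in replicate 1. Esr2 had 4 counts in replicate 2 and 5 counts in replicate 1, and the progesterone receptor Pgr 0.38 TPM in replicate 2 and 0.35 TPM in replicate 1. Pgr, often used as an estrogen target, stood at 66 counts in replicate 2 and 65 counts in replicate 1, and the Esr1 level was 28.2 times that of Pgr in replicate 2 and 23.2 times in replicate 1. Greb1, another estrogen target, had 68.14 TPM in replicate 2 and 37.81 TPM in replicate 1, while Areg and Tnfsf11 were listed at 0 in both.

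Estrogen-related receptors, which bind no known estrogen and act on mitochondrial genes, were present as Esrra and Esrrg. Esrra had 16.76 TPM in replicate 2 and 9.63 TPM in replicate 1. Its 422-codon product took 77.4% of TPM in replicate 2 and 86.5% in replicate 1. By the kallisto-format tables that product took less, 54.4% in replicate 2 and 63.9% in replicate 1. Esrrg had 7.19 TPM in replicate 2 and 6.07 TPM in replicate 1. By the kallisto-format tables the order of the animals was the other way for Esrrg, at 6.86 TPM in replicate 2 and 8.04 TPM in replicate 1. Esrrb, known from stem cells, had 0.09 TPM in replicate 2 and 0.06 TPM in replicate 1. All 11 ERR targets were detected, led by Atp5b of ATP synthase at 786.80 TPM in replicate 2 and 621.31 TPM in replicate 1. Ppargc1a and Ppargc1b, coactivators of these receptors and of the PPARs, were low: Ppargc1a had 1.76 TPM in replicate 2 and 0.32 TPM in replicate 1, and Ppargc1b 3.06 TPM in replicate 2 and 0.63 TPM in replicate 1.

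Vdr, the vitamin D receptor, had 9.72 TPM in replicate 2 and 9.49 TPM in replicate 1. Its counts ran the other way, 865 in replicate 2 and 1030 in replicate 1, because the deposited effective length, by which TPM divides, was 2957 bases in replicate 2 and 3872 bases in replicate 1. Vdr was the 1 detected receptor for which TPM and scaled counts put different animals ahead. Cyp24a1, its textbook target, was listed at 0 in both animals. Of the 5 genes of vitamin D metabolism 1 was detected, Cyp27a1, at 10.51 TPM in replicate 2 and 5.86 TPM in replicate 1. The xenobiotic receptors Nr1i2 (PXR) and Nr1i3 (CAR) had 3 and 4 counts in replicate 2 and none in replicate 1, at or barely above what a count of 0 allows. Nr1i3 shares 74.9% of its exonic bases with the oppositely oriented Tomm40l, which had 17.69 TPM in replicate 2 and 14.33 TPM in replicate 1.

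Orphan receptors reached levels like those of the hormone-binding ones. Rora, a receptor of the clock and of lipid metabolism, had 26.95 TPM in replicate 2 and 35.87 TPM in replicate 1. Its counts were 4811 in replicate 2 and 4397 in replicate 1, the most of any receptor here, and its effective length was 5931 bases in replicate 2 and 4375 bases in replicate 1. Rorb, known from retina and cortex of the brain, had 0.37 TPM in replicate 2 and 0.41 TPM in replicate 1.

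Rora products share their last 1376 coding bases, and their separate starts are given in capitals, chr9:68653807-68653866 for the first 60 bases of Rora-201 and chr9:69290021-69290048 for the 28 bases that Rora-202 has alone, both plus strand of mm10. These starts belong to separate first exons.
Rora-201: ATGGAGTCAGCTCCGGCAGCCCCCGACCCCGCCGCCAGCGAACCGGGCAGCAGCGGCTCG
Rora-202: ATGTATTTTGTGATCGCAGCGATGAAAG
The 523-codon product of Rora-201 took 44.2% of TPM in replicate 2 and 28.9% in replicate 1. The 467-codon product of Rora-202 took 38.7% in replicate 2 and 36% in replicate 1. Transcripts with no coding sequence took 14.8% in replicate 2 and 33.3% in replicate 1, or 4.0 TPM in replicate 2 and 11.93 TPM in replicate 1. Over coding transcripts the order of the products differed between animals, in the kallisto-format tables too, at 45.0% against 34.4% in replicate 2 and 25% against 30.4% in replicate 1.

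Nr2c2, the testicular receptor TR4, had 18.41 TPM in replicate 2 and 17.45 TPM in replicate 1. Its relative Nr2c1 (TR2) had 5.70 TPM in replicate 2 and 5.29 TPM in replicate 1, so Nr2c2 stood at 3.23 times Nr2c1 in replicate 2 and 3.30 times in replicate 1. Nr2f6, a repressor related to the COUP-TFs, had 21.98 TPM in replicate 2 and 23.80 TPM in replicate 1. The 596-codon product took 76.7% of Nr2c2 TPM in replicate 2 and 63.2% in replicate 1. The 390-codon product took 77% of Nr2f6 TPM in replicate 2 and 67.3% in replicate 1. By the kallisto-format tables the Nr2c2 product took 65.6% in replicate 2 and 49.6% in replicate 1. There the Nr2f6 product took 74.6% in replicate 2 and 69.4% in replicate 1. Exons of Nr2f6 lie opposite those of Ocel1 over 54.4% of their bases, and exons of Nr2c2 opposite those of Mrps25 over 30.7%, so that reads of these pairs cannot be told apart if counting ignored strand. Nr6a1, the germ cell nuclear factor, had 4.59 TPM in replicate 2 and 5.39 TPM in replicate 1.

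Nr5a2 (LRH-1), the close relative of Nr5a1, had 1.47 TPM in replicate 2 and 1.01 TPM in replicate 1, and Nr5a1 itself 101.04 TPM in replicate 2 and 175.63 TPM in replicate 1. Hnf4a, a master regulator of liver, had 8 counts in replicate 2 and 3 counts in replicate 1. Hnf4g and the retinal receptor Nr2e3 were listed at 0 in both animals, and the neural stem cell receptor Nr2e1 had no count in replicate 2 and 1 count in replicate 1. Among 8 HNF4 targets 3 were detected, none above 10 TPM in either animal. G6pc, the glucose-releasing phosphatase, had 1.68 TPM in replicate 2 and 8.95 TPM in replicate 1.

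**Figure D2:**
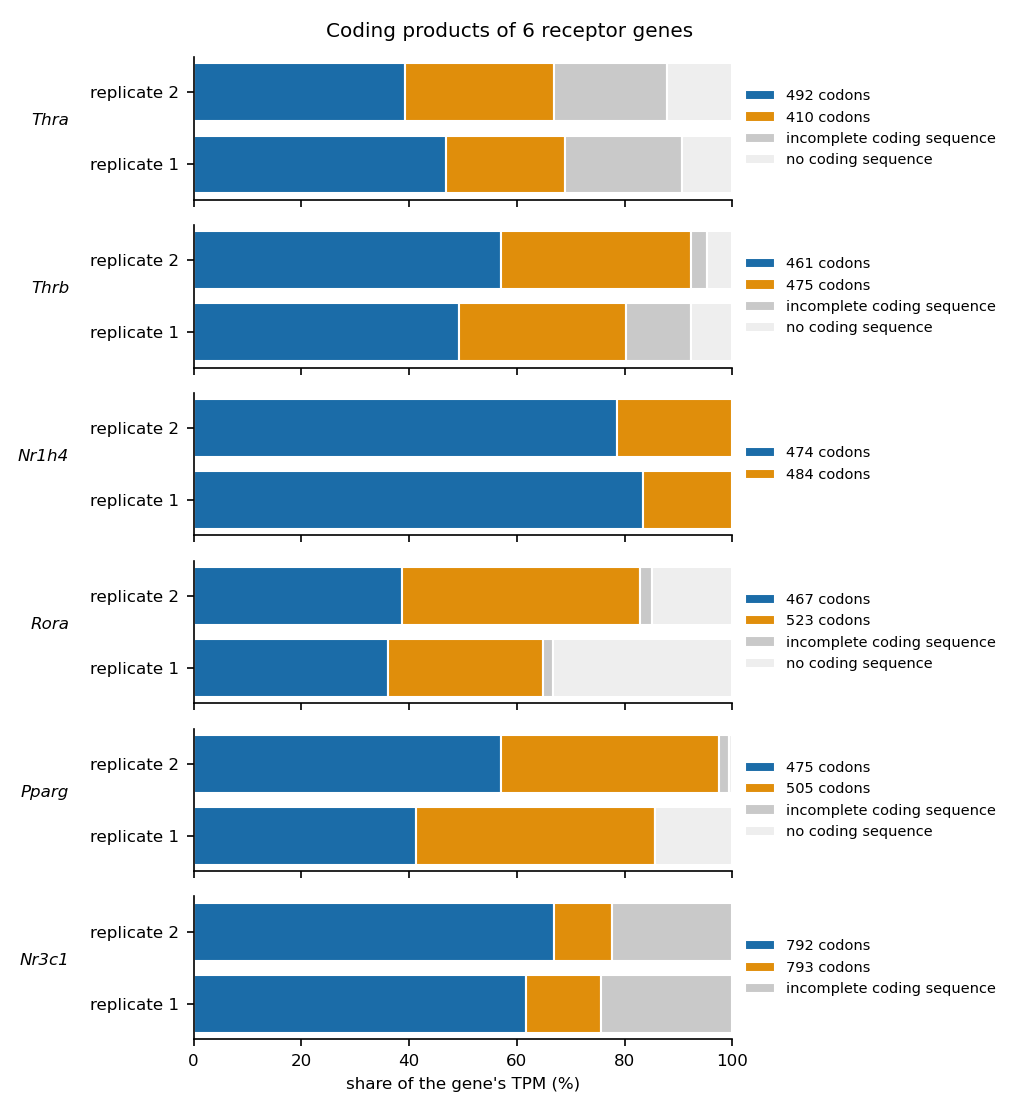
Share of a gene's TPM (%) taken by each coding product of 6 receptors in replicate 2 (upper bar) and replicate 1 (lower bar), from the RSEM-format tables, with products of at most 1% left out. Colours stand for products by number of codons and greys for transcripts with an incomplete or no coding sequence. The 492-codon product of Thra, the 461-codon product of Thrb and the 474-codon product of Nr1h4 led in both animals.

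The study has 1 group, so the comparison its design allows is that of replicate 2 with replicate 1. Expected counts scaled by TMM (a library scaling that trims extreme genes) gave folds with 95% intervals that cover counting error only. A gene was counted as apart where its mean was 100 counts or more, the fold was 2 or more either way and the interval excluded equality. A single animal stood on either side, so there is no p-value and the folds compare these 2 animals. Of 24 receptors with that depth, 2 were higher in replicate 2 and 0 lower, against 2.40% higher and 1.10% lower among all 12853 genes with that depth. With 2 genes, their share is not read as a result about the receptors.

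Pparg and Ppara were the 2. Pparg, with 935 counts in replicate 2 against 123 in replicate 1, had a fold of 6.54 (interval 5.41 to 7.95). Ppara, with 527 counts in replicate 2 against 183 in replicate 1, had a fold of 2.48 (interval 2.09 to 2.95). Rxrg lay further apart, at 12.3-fold with an interval from 4.53 to 46.5, but on fewer counts than the rule asks. These were the receptors with the widest gaps, all toward replicate 2.

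The other receptors with that depth differed less. Nr1h3 had a fold of 1.66 (interval 1.44 to 1.92), Nr3c1 of 1.57 (1.47 to 1.69), Esrrg of 1.54 (1.37 to 1.74) and Esrra of 1.5 (1.36 to 1.67). On the other side Vdr had a fold of 0.722 (0.659 to 0.791), Ppard of 0.758 (0.702 to 0.820) and Rarg of 0.791 (0.723 to 0.866). Of the 24, 18 lay within 1.5-fold of equality. Intervals excluded equality above for 15 and below for 4, and included it for 5. Over the 28 receptors with a mean of at least 10 counts, the log2 ratio of CPM + 1 ran between -0.45 and 2.45 with a median of 0.17, against 0.01 over 18181 genes with that depth. Of the 28, 18 were higher in replicate 2 and 10 lower. Shares over all genes were not counted for the 1.5-fold range, the intervals or these directions. These counts are therefore not read as a result about the receptors.

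**Figure D3:**
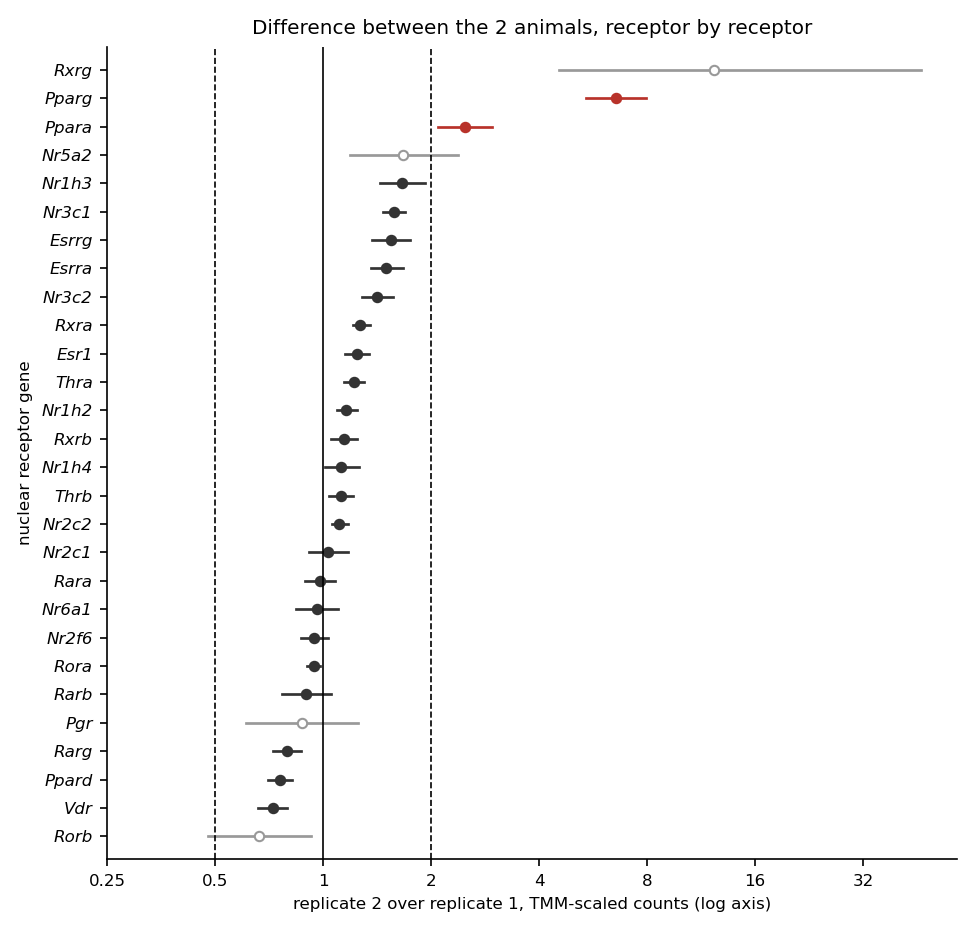
Fold of TMM-scaled counts, replicate 2 over replicate 1 (log axis), for the 28 receptors with a mean of at least 10 counts, with 95% counting intervals as bars. Red marks Pparg and Ppara, open grey circles mark receptors with a mean under 100 counts, the solid line is equality and the dashed lines are 2-fold either way.

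The PPARG targets and the fat markers differed in the same direction as Pparg. All 10 PPARG targets were higher in replicate 2 by the 2-fold rule, their summed level being 1779 TPM in replicate 2 and 243 TPM in replicate 1, and their log2 ratios had a median of 2.99. Fabp4, the fatty acid carrier of adipocytes, had 572.39 TPM in replicate 2 and 62.06 TPM in replicate 1. Lpl, which releases fatty acids from lipoproteins, had 233.16 TPM in replicate 2 and 27.98 TPM in replicate 1. Pck1 had 121.87 TPM in replicate 2 and 5.44 TPM in replicate 1. The list shares 5 of its genes with the adipocyte markers, all 6 of which were also higher in replicate 2 by that rule, with folds between 3.37 for Plin1 and 14.4 for Cfd.

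Of the 5 brown adipocyte markers 4 were higher in replicate 2, and none was lower. Ucp1, the uncoupling protein of brown fat, had 80.62 TPM in replicate 2 and 0.14 TPM in replicate 1, and Cidea 49.66 TPM in replicate 2 and 0.39 TPM in replicate 1. Cox8b, a respiratory complex subunit of brown fat, had 101.72 TPM in replicate 2 and 16.20 TPM in replicate 1. The part of these fat markers in the folds of Pparg, Ppara and Rxrg was not tested. All 5 fibroblast markers were higher in replicate 2 as well, 2 of them past the rule, at a summed 235 TPM in replicate 2 and 131 TPM in replicate 1. All 5 macrophage markers had higher scaled counts in replicate 2, none past the rule, at a summed 121 TPM in replicate 2 and 81.7 TPM in replicate 1. All 6 cortical markers had lower scaled counts in replicate 2, none past the rule. The 3 markers of the zona glomerulosa, the outer zone of the cortex, were mixed, and none was past the rule. Cyp11b2 had a fold of 1.19 (1.16 to 1.23), Dab2 of 1.04 (1.02 to 1.07) and Agtr1a of 0.627 (0.607 to 0.648).

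Chromaffin markers were all 6 lower in replicate 2, and 2 of them were past the rule. Pnmt, which makes adrenaline from noradrenaline, had 78.02 TPM in replicate 2 and 363.16 TPM in replicate 1, a fold of 0.198 (0.190 to 0.207). Th, the rate-limiting enzyme of catecholamine synthesis, had 255.69 TPM in replicate 2 and 514.07 TPM in replicate 1, a fold of 0.459 (0.450 to 0.469). The part of these markers of other cell types in the receptors' folds was not tested either.

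**Figure D4:**
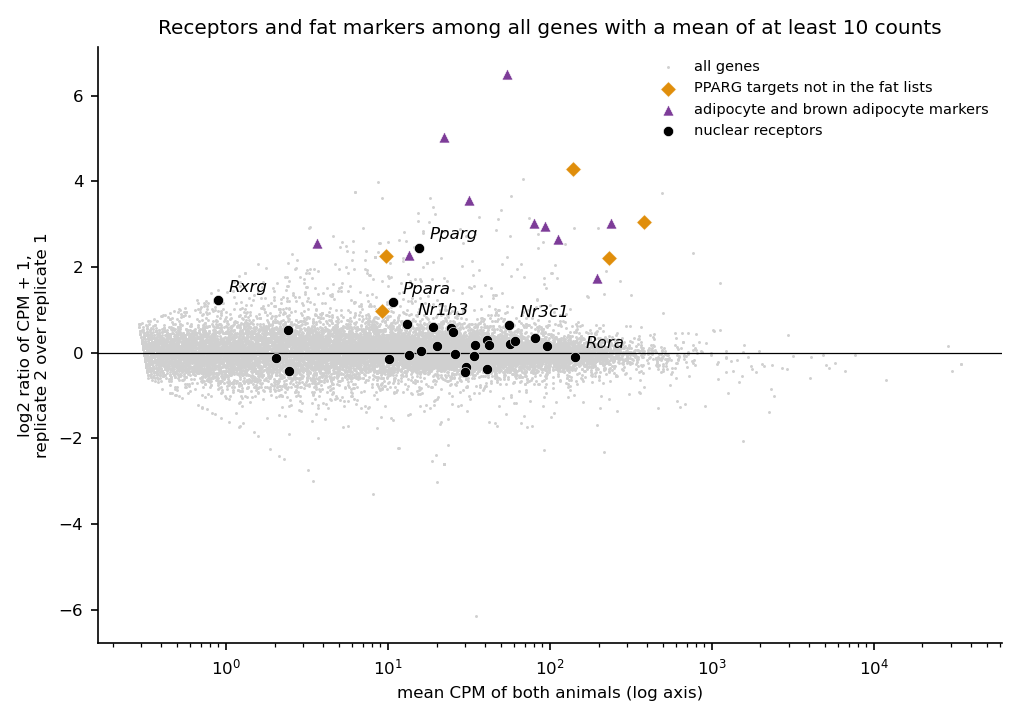
Log2 ratio of CPM + 1, replicate 2 over replicate 1, against mean CPM (log axis) for the 18181 genes averaging 10 counts or more, in grey. Receptors are black circles, fat markers purple triangles and the remaining PPARG targets orange diamonds. Pparg sits at 2.45 beside the fat genes, and most receptors lie close to 0.

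Other target lists held calls in both directions, to be set against the 2.40% higher and 1.10% lower among all genes with the required depth. Of 9 PPARA targets with that depth 2 were past the rule, of 8 LXR targets 2 and of 6 thyroid hormone receptor targets 2 (Thrsp and Hr), all higher in replicate 2. Of 3 HNF4 targets 1 was past it, G6pc, with a fold of 0.173 (0.141 to 0.212), and of 5 retinoic acid receptor targets 1, Cyp26b1, with a fold of 0.483 (0.420 to 0.555), both lower in replicate 2. Pdk4, a brake on glucose oxidation that is also an ERR target, had 30.84 TPM in replicate 2 and 4.33 TPM in replicate 1. Ehhadh, of peroxisomal fatty acid oxidation, had 6.59 TPM in replicate 2 and 2.68 TPM in replicate 1. Scd1, the stearoyl-CoA desaturase, had 362.07 TPM in replicate 2 and 119.86 TPM in replicate 1, and Mylip 4.93 TPM in replicate 2 and 2.24 TPM in replicate 1. By scaled counts the fold of Scd1 was 5.01 (4.89 to 5.13). Scd1 is abundant in fat, and its close relative Scd2 had 455.49 TPM in replicate 2 and 509.81 TPM in replicate 1.

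All 11 ERR targets were higher in replicate 2, by log2 ratios between 0.15 and 2.78, and 1 of them, Pdk4, was past the rule. Without Pdk4 the highest of the other 10 was 0.74. Their median was 0.40, set against 0.01 over all genes with that depth. Esrra itself is on that list, with 0.57. The part of the fat markers in this list was not tested.

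Partners of the receptors were detected almost without gap, 13 of 15 coactivators and all 10 corepressors. Ncor1, a corepressor that brings histone deacetylase to the receptors, had 93.75 TPM in replicate 2 and 97.79 TPM in replicate 1. Prmt1 led the coactivators with 98.48 TPM in replicate 2 and 112.22 TPM in replicate 1. The coactivators below 1 TPM in an animal were Ppargc1a and Ppargc1b. In each list 1 gene was past the rule, higher in replicate 2. These were Ppargc1b, with a fold of 3.74 (2.83 to 5.0), and Hr, a corepressor of thyroid hormone receptors and also their target, with a fold of 4.03 (3.39 to 4.81).

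The chaperones that hold steroid receptors were all 8 detected, and 7 had lower scaled counts in replicate 2. Hsp90aa1 had 125.05 TPM in replicate 2 and 290.90 TPM in replicate 1, a fold of 0.405 (0.395 to 0.415). Stip1, which links heat-shock proteins, had 48.08 TPM in replicate 2 and 92.16 TPM in replicate 1, a fold of 0.482 (0.460 to 0.504). These 2 were past the rule and fell in replicate 2, and the list had a median log2 ratio of -0.62. The steroid receptors that these chaperones serve had folds of 1.57 for Nr3c1, 1.41 for Nr3c2 and 1.24 for Esr1, none past the rule and each with an interval above equality.

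Of the 13 other nuclear receptors kept out of the 36, 12 were detected and 1 was past the rule. Nr4a1, an immediate early gene, had 17.92 TPM in replicate 2 and 78.40 TPM in replicate 1. Their summed level was 392 TPM in replicate 2 and 512 TPM in replicate 1, whereas the 36 receptors summed to 404 TPM in replicate 2 and 337 TPM in replicate 1. Lists with no gene past the rule were those for corticosteroid activation, vitamin D, oxysterol supply, FXR, PXR and CAR targets, estrogen targets and mineralocorticoid targets. In that order they held 4, 1, 3, 1, 3 and 6 genes with the required depth. With so few, the absence of a call is not read as a result about these lists. The retinoid supply list, which also holds Cyp26b1, had Rbp4 higher in replicate 2, with a fold of 4.44 (3.51 to 5.69).

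**Figure D5:**
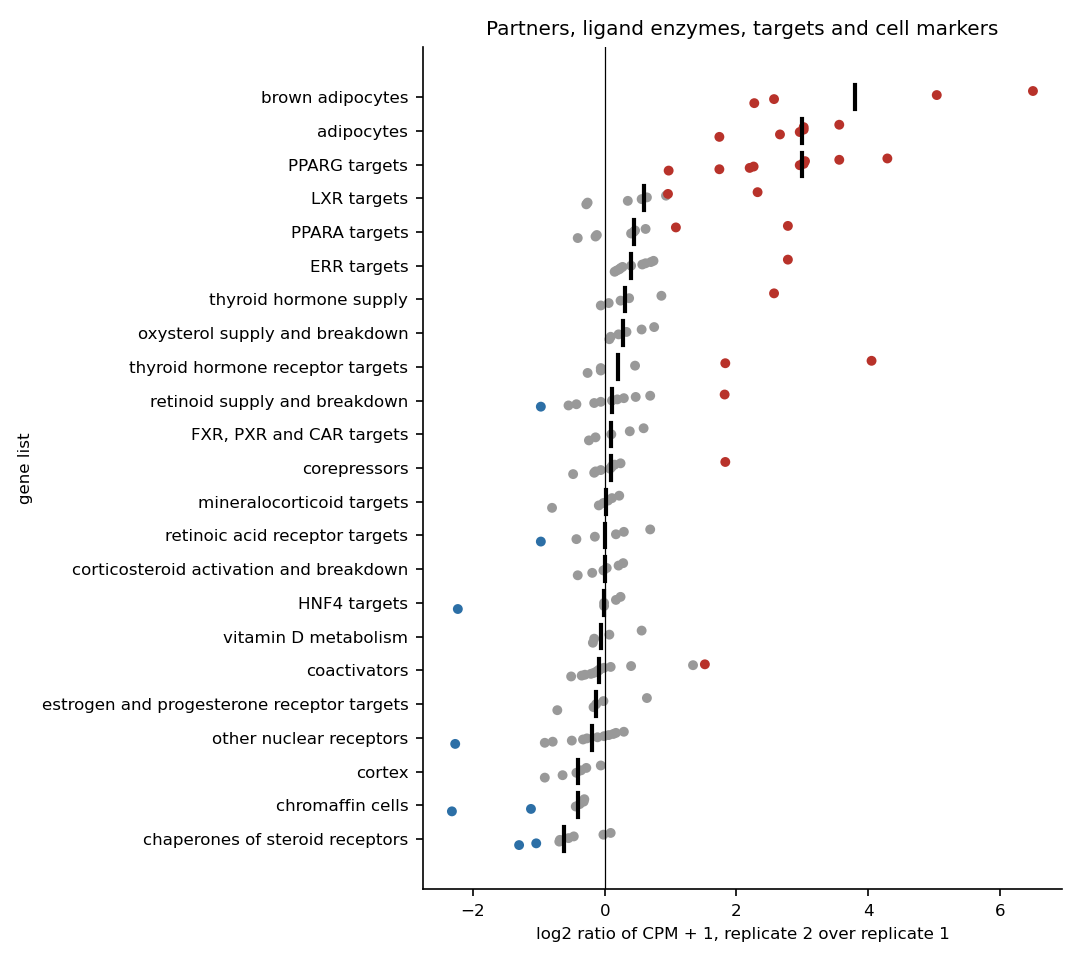
Log2 ratio of CPM + 1, replicate 2 over replicate 1, of the genes of each list with a mean of at least 10 counts. Red points were past the 2-fold rule and higher in replicate 2, blue points past it and lower, and black bars are list medians. The fat lists and PPARG targets stand at the top and the steroid receptor chaperones at the bottom.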

How the data were processed

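Total RNA was sequenced in 2 adrenal glands, 1 animal each, from a directional library kit, per the labels. The deposited gene and transcript tables hold expected counts (not normalized) and TPM under the column names of RSEM, with mm10 and GENCODE M21, per the file headers and labels. Deposited beside them are the posterior mean and SD and credibility bounds (a score column each) and the percent of a gene's TPM that each transcript takes (IsoPct). A further deposited transcript table has kallisto column names, with estimated counts and TPM. Software versions and the strand setting of counting: not given in the sources used. The 26248 entries named by a bare number and 96 spike-in entries stayed out of library sizes and results but remain in the deposited TPM total. The numbered entries take 0.00115% of it in replicate 2 and 0.000809% in replicate 1, and spike-ins 0.366% in replicate 2 and 0.353% in replicate 1.

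Whether reads of the CAST/EiJ allele were lost against mm10 was not tested. Levels are the deposited TPM. A gene was detected at 1 TPM or more in both animals. Counts were scaled with TMM from edgeR 4.0.16 (R 4.3.3), with size factors from DESeq2 1.42.0 tried in their place. Folds are ratios of rounded scaled counts with exact conditional binomial 95% intervals, and log2 ratios use CPM + 1. Fold and interval code was tested on simulated data. With 1 animal a side no test applies: the smallest p that a paired exact permutation over 2 animals allows is 0.5. Intervals and floors cover counting error only, since reads that carry no molecular identifier may be copies of 1 molecule. All 36 receptors were named, with each animal's level where at least 1 TPM, and the transcripts of the 12 highest and of Nr3c1, Thrb, Rora and Pparg were examined, plus those of Nr1h4. From each of 19 pathway and 10 marker lists, covering 203 genes that all matched (1 through a RefSeq synonym), the 3 highest and every gene past the 2-fold rule could be named. Genes outside that choice were named after their values were seen. The receptors and lists were chosen with earlier results of these data known, so their counts are descriptions. Alternatives were other scalings and tables, thresholds, added constants and each animal left out. A few genes of the lists are not reported here.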

Additional observations from a re-analysis of the deposited data

How the results depend on the processing

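The number of receptors detected was 25 and lay at 24 in the kallisto-format tables (where Nr5a2 fell under 1 TPM), 25 with TPM rescaled to nuclear coding genes, 25 at a threshold of 0.5 TPM and 20 at 5 TPM. With either animal left out it was between 25 and 26. Receptors at least 2-fold apart numbered 2 under each other scaling and table. They numbered 3 with a mean of at least 10 counts or with no filter, and 6 at a fold of 1.5. All were higher in replicate 2. Shares of all genes under these other settings were not counted, so the numbers are not read as a result about the receptors. The median log2 ratio of 0.17 lay between 0.16 and 0.24 over all alternatives, where ERCC scaling moved the median of all genes to 0.07. Of 26 receptor means 11 moved beyond their SD in the kallisto-format tables, and none by over 1.5 times. Rescaling TPM to nuclear coding genes, which take 38.2% of TPM in replicate 2 and 36.6% in replicate 1, raised all 26 means beyond their SD, that of Nr1h2 to 123 TPM from 45.9 TPM. Of 25 transcript shares 17 moved beyond theirs, so shares are less certain than gene levels. Of 14 level ratios between receptors 11 moved beyond their SD when counts replaced TPM. No direction of Pparg or Ppara reversed. No paired analysis was possible because the labels give 1 group. Depth limits receptors under 10 counts, whose folds are not interpreted.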
